A study of Mus musculus with 2 samples.

Results

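S100a4, S100a6, S100a10, S100a11, Lgals1, Crip1, Anxa1, Anxa2, Vim and Serpinb6b were examined as a group of genes of activated and effector T cells. They were chosen by symbol, with earlier results of these data known. They are 10 of the 32285 genes listed for each library, and were all detected in both. The 2 libraries hold single-cell RNA-seq of donor T cells from the spleens of BALB/c recipients of C57BL/6 cells, with 1 library at day +7 and 1 at day +14 after allogeneic hematopoietic cell transplantation (allo-HCT), a model of acute graft-versus-host disease (aGvHD). All recipients were irradiated and given wild-type T cell-depleted marrow together with wild-type T cells. The names of both libraries carry the word PBS, and no untreated or naive T cells were analysed here. Cells of several spleens went into each library, and because the labels name day +7 for the sorting of both, the day was taken from the sample titles. The sort was for CD45+H2Kb+H2Kd-TCRβ+ cells, and the study's methods describe age-matched mice, in one place female and in another of both sexes.

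Most S100 proteins are small calcium-binding proteins that work as dimers. S100a10 forms a tetramer with annexin A2, and S100a11 is a partner of annexin A1. Annexins bind membrane phospholipid when calcium rises and take part in membrane repair and vesicle traffic, and annexin A1 is abundant in neutrophils, where it limits inflammation. Galectin-1 (Lgals1) is a secreted lectin that binds galactosides on the surface of T cells, vimentin (Vim) is the intermediate filament of migrating lymphocytes, Crip1 is a small LIM-domain protein, and Serpinb6b is an intracellular serine protease inhibitor. Transcripts of most of these genes are low in naive T cells and high in effector and memory T cells.

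Of these genes, 4 lie on 1 chromosome in pairs (mm10, GENCODE M21 gene models), and genes lying between them were not looked for. S100a4 spans chr3:90603771-90606045 and S100a6 chr3:90612882-90624181, with 6836 bases between them. S100a11 spans chr3:93520488-93526287 and S100a10 chr3:93555080-93564643, with 28792 bases between them. The others are on separate chromosomes, Lgals1 at chr15:78926725-78930465, Crip1 at chr12:113146316-113153879, Anxa1 at chr19:20373428-20390944, Anxa2 at chr9:69453620-69491795, Vim at chr2:13573927-13582826 and Serpinb6b at chr13:32965209-32979067. All are on the plus strand except Anxa1.

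The RefSeq promoter table (GRCm38.p6) matched 8 of the 10 genes, without S100a10 and Lgals1. Short motifs were counted in the 250 bases before the RefSeq start. The AP-1 motif TGANTCA, which reads the same on both strands, was in 2 of the 8 and in 6.75% of all 32851 promoters. The 2 were S100a11 and Anxa2, and any link of the motif to the day ratios was not tested. The TATA motif TATAAA on the plus strand was in 4 of 8 (S100a4, Anxa1, Anxa2 and Vim) and in 7.59% of all promoters. The motif CCACCC, on either strand, was in 4 of 8 (S100a4, Crip1, Anxa2 and Vim) and in 28.1% of all promoters. Within a promoter, no match of one motif overlapped a match of another. The sequences below are shown to set the AP-1 matches of S100a11 and Anxa2 beside S100a4 and S100a6, which lack them. Each runs 5′ to 3′ on the plus strand and ends before the GENCODE gene start. Capitals mark TGANTCA and TATAAA.
S100a11, chr3:93520246-93520487: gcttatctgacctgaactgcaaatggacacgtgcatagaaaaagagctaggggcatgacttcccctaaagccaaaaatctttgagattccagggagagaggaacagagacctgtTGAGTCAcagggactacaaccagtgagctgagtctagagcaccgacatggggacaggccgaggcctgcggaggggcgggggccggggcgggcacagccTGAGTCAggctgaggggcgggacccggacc
Anxa2, chr9:69453433-69453619: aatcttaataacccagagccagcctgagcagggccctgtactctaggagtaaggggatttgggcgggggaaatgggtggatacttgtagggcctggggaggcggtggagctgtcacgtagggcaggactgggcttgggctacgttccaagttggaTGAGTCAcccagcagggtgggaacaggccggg
S100a4, chr3:90603520-90603769: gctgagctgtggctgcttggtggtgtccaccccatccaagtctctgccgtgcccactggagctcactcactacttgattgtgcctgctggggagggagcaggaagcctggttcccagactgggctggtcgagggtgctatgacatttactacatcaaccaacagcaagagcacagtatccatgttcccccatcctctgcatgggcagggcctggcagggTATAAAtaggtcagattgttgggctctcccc
S100a6, chr3:90612644-90612881: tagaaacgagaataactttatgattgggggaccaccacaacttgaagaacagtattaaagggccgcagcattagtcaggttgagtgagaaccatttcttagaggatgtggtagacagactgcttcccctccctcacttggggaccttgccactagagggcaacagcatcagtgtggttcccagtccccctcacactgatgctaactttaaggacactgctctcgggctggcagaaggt
In S100a11 the AP-1 motif starts 136 and 38 bases before the RefSeq start, in Anxa2 95 bases before it, and the TATA motif of S100a4 starts 31 bases before it. The TATA motif of Anxa2, 17 bases before the RefSeq start, lies past the printed end. A match is a run of letters and not a bound site.

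Barcodes were kept at 500 to 7500 detected genes and at most 15% mitochondrial UMIs. By this filter 7179 of 7355 barcodes were kept at day +7 and 7794 of 8043 at day +14, with medians of 9210 and 8144 UMIs (unique molecular identifiers, 1 per captured RNA molecule). Kept cells were gated on fixed marker lists. T cells were those with at least 1000 TCR CPM (UMIs per 10⁶ UMIs) and no higher list of another lineage. CD8 cells held Cd8a or Cd8b1 UMIs without Cd4, 5971 at day +7 and 5994 at day +14, and CD4 cells held Cd4 without Cd8, 477 and 708. Cells with both (205 and 521) or neither (296 and 399) entered neither the CD8 nor the CD4 gate. They were still counted among T cells and among all kept cells. Cycling cells had at least 1500 CPM of a mitotic and S-phase list, and Ifitm-high cells were non-cycling cells with at least 500 CPM of Ifitm1, Ifitm2 and Ifitm3, which encode interferon-induced antiviral membrane proteins. Ifitm-high CD8 cells numbered 845 at day +7 and 45 at day +14. These gates are ranges, not cell types. Of the CD8 and CD4 cells, 6.59% at day +7 and 6.01% at day +14 lay within 20% of the cycling cut, and 222 of 477 CD4 cells at day +7 and 311 of 708 at day +14 held a single Cd4 UMI. The libraries shared 17 kept barcodes, and no doublet caller was run.

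The first question was whether these transcripts differed between day +7 and day +14 in the same gate. In CD8 cells the 10 genes together made up 2.89% of all UMIs at day +7 and 1.83% at day +14. Genes were called when the CPM of the summed UMIs, with 1 CPM added, differed by more than 1.5-fold and their mean was at least 10 CPM. Of the 10 genes, 7 were lower at day +14 past 1.5-fold and 0 were higher, whereas 2.78% of the 6834 genes compared were called lower and 8.41% higher. The median log2 ratio of day +14 over day +7 was -0.65 over the 10 genes and 0.19 over all genes. With ratios scaled to the median gene in place of the total, 8 of the 10 were lower. Among the 155 genes at 1000 CPM or more, which include 7 of the 10, 7.10% were called lower. With 1 library per day, and with the 10 genes chosen when earlier results of these data were known, no test was possible. The 95% intervals below are exact and cover counting error only, not differences between mice or libraries.

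Of the S100 genes, S100a4, which binds nonmuscle myosin and is linked to cell motility, stood at 4597 CPM at day +7 and 3049 at day +14 in CD8 cells. Its log2 ratio was -0.59 (95% interval -0.60 to -0.58), at the edge of the 1.5-fold limit of 0.58, and it was not called when cells were thinned to 4000 UMIs. S100a6, also known as calcyclin, stood at 6243 and 3618 CPM, a log2 ratio of -0.79 (-0.79 to -0.78), or 74.0 and 40.1 UMIs per cell. S100a10, the annexin A2 partner, stood at 2825 and 1764 CPM, a log2 ratio of -0.68 (-0.69 to -0.67). S100a11 stood apart from the other S100 genes, with 1154 and 1054 CPM and a log2 ratio of -0.13 (-0.15 to -0.12).

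Among the annexins, Anxa1 had few UMIs in CD8 cells, with 32.4 CPM on the first day and 6.68 on the second. Its log2 ratio was -2.28 (-2.43 to -2.13), the lowest of the 10. Anxa2, in contrast, stood at 725 and 653 CPM, a log2 ratio of -0.15 (-0.17 to -0.13), so S100a10 and the annexin it pairs with did not differ between the days by the same fold.

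Lgals1 stood at 5962 CPM at day +7 and 3878 at day +14 in CD8 cells, a log2 ratio of -0.62 (-0.63 to -0.61). Crip1 stood at 5034 and 2835 CPM, a log2 ratio of -0.83 (-0.84 to -0.82). Vim stood at 1773 and 1251 CPM, a log2 ratio of -0.50 (-0.52 to -0.49). Of these, Lgals1 and Crip1 were called lower and Vim was not. Serpinb6b stood at 522 and 209 CPM, a log2 ratio of -1.32 (-1.35 to -1.29). Its paralog Serpinb6a stood at 46.3 and 67.4 CPM, a log2 ratio of 0.54, and whether the counting split reads between the paralogs was not tested. Summed, the pair stood at 569 and 276 CPM, a log2 ratio of -1.04 (-1.07 to -1.02).

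In CD4 cells 5 of the 10 genes were called lower at day +14 (background 2.86%) and 0 higher (14.1%), with a median log2 ratio of -0.71 against 0.16 over all 6983 genes. S100a6 (5177 and 2734 CPM, log2 ratio -0.92), Lgals1 (4721 and 2578, -0.87), Crip1 (4663 and 2399, -0.96), Anxa1 (85.1 and 22.4, -1.92) and Serpinb6b (369 and 178, -1.06) were lower past 1.5-fold. S100a4 (4766 and 3568, -0.42), S100a10 (2570 and 1769, -0.54), Vim (1462 and 1014, -0.53) and Anxa2 (542 and 450, -0.27) lay within it. S100a11 was the exception in direction, with 1214 CPM at day +7 and 1458 at day +14, a log2 ratio of 0.26 (0.22 to 0.31). The granulocyte list stood at 18.6 CPM at day +7 and 57.3 at day +14 in the CD4 gate, whereas it stood at 43.5 and 45.8 in the CD8 gate, and its part in the S100a11 value was not tested.

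In the cycling gates and in the non-cycling gates below the Ifitm cut, 5 or 6 of the 10 genes were called lower at day +14. In cycling CD8 cells 5 of the 10 were called lower (background 2.58%) and 0 higher (6.93%), in non-cycling CD8 cells below the Ifitm cut 6 of 10 (2.94%), in cycling CD4 cells 5 of 10 (4.04%) and in non-cycling CD4 cells below the Ifitm cut 5 of 10 (3.65%). Crip1 had log2 ratios of -0.74 and -0.999 in cycling and other non-cycling CD8 cells, and Serpinb6b had -1.27 and -1.38. S100a11 lay at -0.07 and -0.18 in these CD8 gates and at 0.22 and 0.23 in the corresponding CD4 gates. In the Ifitm-high CD8 gate, with 45 cells at day +14, Crip1 (5666 and 3252 CPM, -0.80) and Serpinb6b (596 and 269 CPM, -1.15) were called lower, 2 of 10 against 9.70%. Anxa1 was called higher there (72.4 and 124 CPM, 0.77), 1 of 10 against 29.1%. Over all kept cells 6 of the 10 were lower (2.67%) and 0 higher (8.45%).

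**Figure D1:**
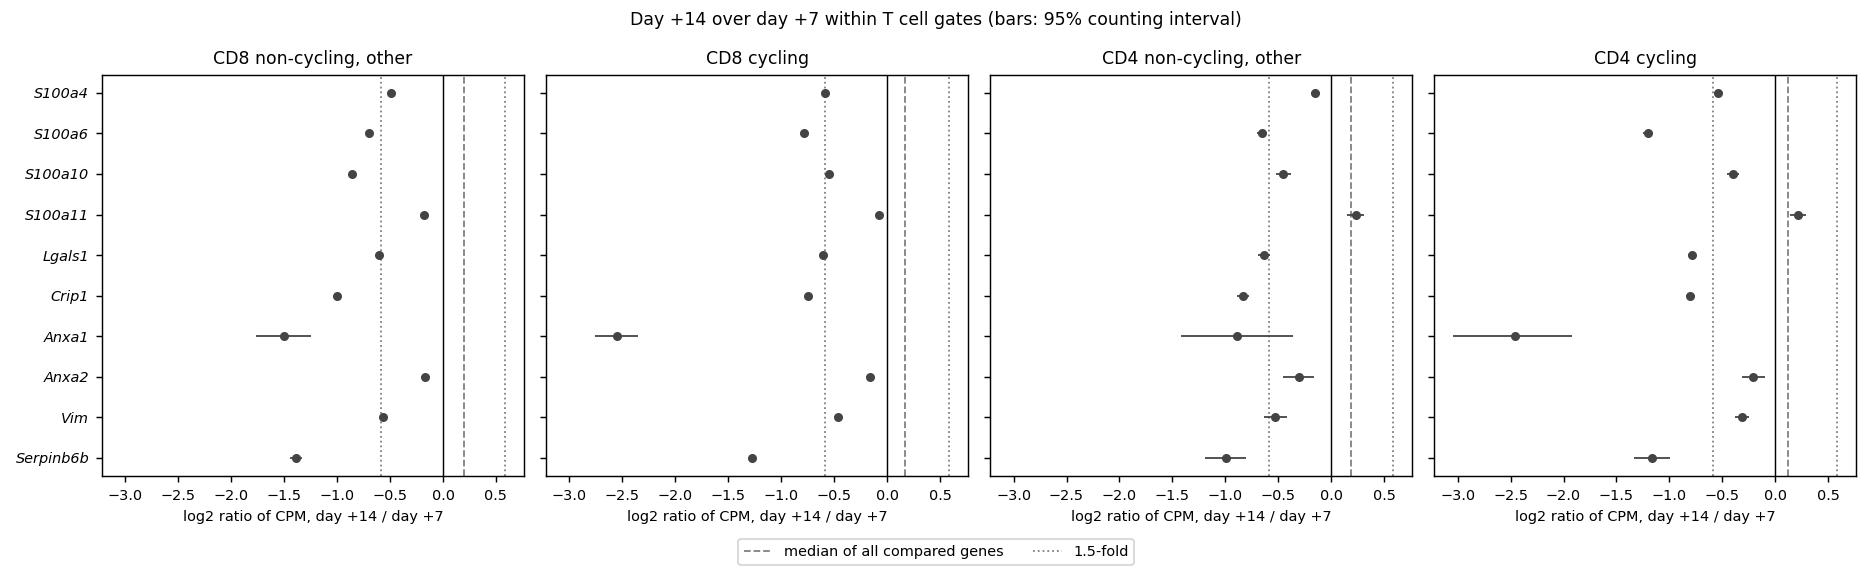
The x axis gives the log2 ratio of CPM (day +14 over day +7) for each gene on the y axis, in 4 T cell gates, with 95% counting intervals as bars, the median of all compared genes as a dashed line and 1.5-fold as dotted lines. In the CD8 panels all 10 genes lie below 0, and in the CD4 panels S100a11 alone lies above 0.

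The difference was also present cell by cell. Cells were thinned at random to 4000 UMIs, which left out 101 CD8 cells at day +7 and 487 at day +14 as too shallow. A CD8 cell then held a median of 125 UMIs of the 10 genes at day +7 (quartiles 96 and 151) and 77 at day +14 (53 and 103), and 87.8% of the day +14 cells lay below the day +7 median. CD4 cells held medians of 111.5 and 64.0, with 84.2% of the day +14 cells below the day +7 median, but thinning left out 201 of 708 CD4 cells at day +14 and 13 of 477 at day +7. In the erythroid gate of day +7, whose cells should hold little of these transcripts, the median was 3 over 100 thinned cells.

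**Figure D2:**
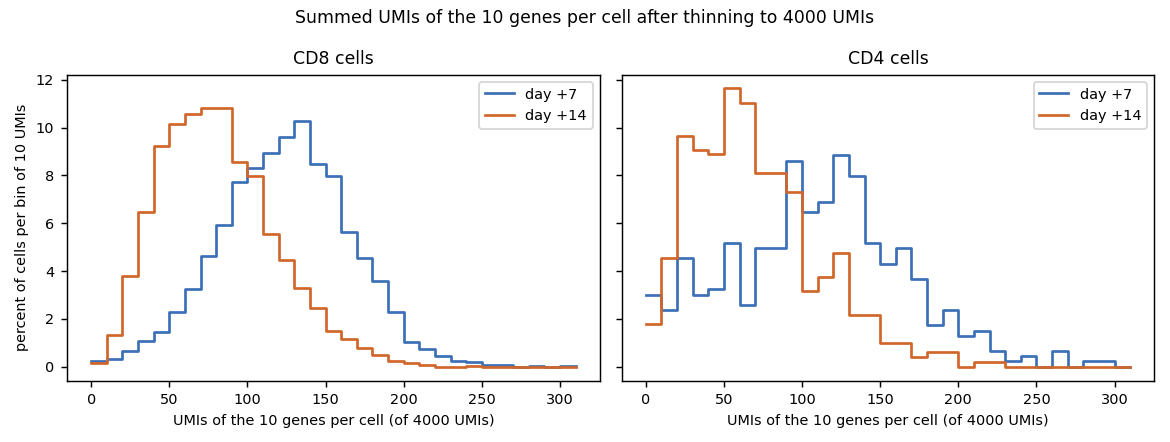
The x axis gives the summed UMIs of the 10 genes in each cell after thinning to 4000 UMIs, and the y axis the percent of cells in each bin of 10 UMIs, for CD8 and CD4 cells at each day (the last bin also holds all higher cells). Both day +14 curves lie to the left of the day +7 curves, with CD8 medians of 77 and 125 UMIs, and the curves overlap.

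For abundant genes the share of CD8 cells with a UMI was close at both days while the number of UMIs was lower at day +14. After thinning, S100a10 had a UMI in 99.4% of CD8 cells at day +7 and 98.8% at day +14, with medians of 12 and 7 UMIs. Crip1 had a UMI in 99.9% and 98.9%, with medians of 21 and 11. For the scarcer genes the share itself was lower. Serpinb6b had a UMI in 79.5% of CD8 cells at day +7 (exact Clopper-Pearson interval 78.5% to 80.5%) and 49.4% at day +14 (48.1% to 50.7%), against 7 of 100 erythroid cells at day +7. Without thinning the CD8 shares were 92.0% and 68.9%. Anxa1 had a UMI in 10.4% (9.66% to 11.2%) and 2.49% (2.09% to 2.93%), and in 20.2% and 5.37% without thinning. In erythroid cells of day +7 the share after thinning was 1 of 100 (0.0253% to 5.45%). That interval holds the day +14 CD8 share, which is therefore not shown to lie above this floor.

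The second question was how the genes stood in cycling and non-cycling CD8 cells of the same library. The non-cycling cells here included the Ifitm-high cells, 845 of 2832 at day +7 and 45 of 2770 at day +14. At day +7, S100a4 (5986 CPM in non-cycling and 3976 in cycling cells, log2 ratio -0.59) and S100a11 (1506 and 997, -0.59) were lower in cycling cells past 1.5-fold, 2 of 10 genes against a background of 5.54%. S100a6 (-0.53), S100a10 (-0.51) and Anxa1 (-0.54) also had negative log2 ratios, while Anxa2 (0.28), Vim (0.21) and Lgals1 (0.13) had positive ones. At day +14 only S100a4 was called lower (4071 and 2654 CPM, -0.62), 1 of the 9 genes over the expression limit against 6.44%, none was called higher (10.2%), and S100a6 (-0.57), S100a11 (-0.49), Vim (0.42), Anxa2 (0.26) and Lgals1 (0.19) kept their signs. These calls lay at the limit, and 0 remained at either day in thinned cells, where S100a4 had log2 ratios of -0.50 and -0.51.

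In the same comparison S100a10 and Crip1 had different values at each day. S100a10 stood at -0.51 at day +7 and -0.15 at day +14, and Crip1 at -0.09 and 0.21. CPM is a share of a cell's UMIs, and cycling CD8 cells held more UMIs, with medians of 13393 against 6938.5 in non-cycling cells at day +7. Whether this bears on the ratios was not tested. In UMIs per cell at day +7, S100a4 was higher in cycling CD8 cells (61.9) than in Ifitm-high (52.9) or other non-cycling cells (43.3). S100a11 likewise had 15.5 UMIs per cycling CD8 cell, against 11.9 in Ifitm-high and 11.5 in other non-cycling cells. Cycling CD4 cells showed the same signs for S100a4, S100a6, S100a11, Lgals1, Anxa2 and Vim, and at day +7 none of the 10 was called higher (14.1%) or lower (9.69%). In CD4 cells of day +14, Vim was higher past 1.5-fold (673 CPM in non-cycling and 1380 in cycling cells, log2 ratio 1.04; 15% of genes were called higher), and S100a6 (-0.71) and Anxa1 (-1.19) were lower (20.3%).

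**Figure D3:**
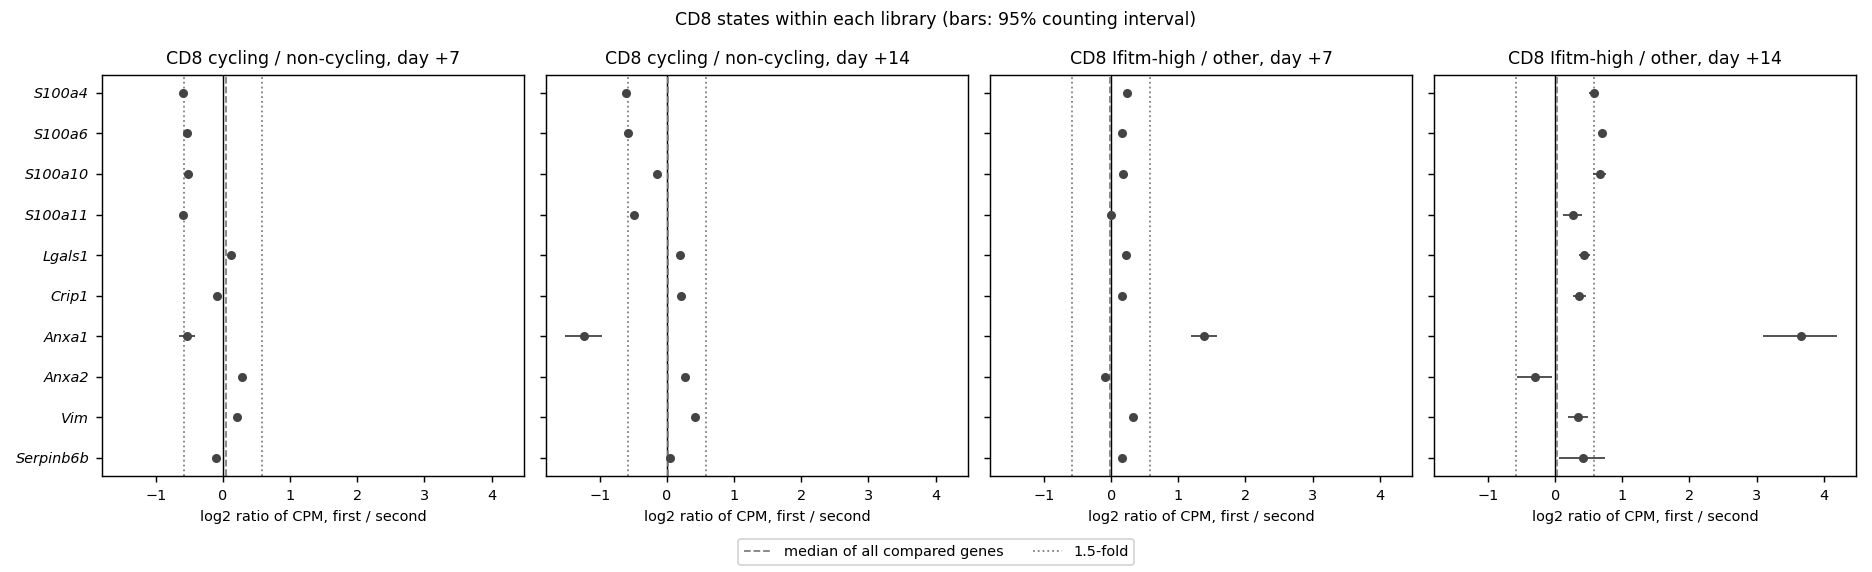
The x axis gives the log2 ratio of CPM for each gene on the y axis, for cycling over non-cycling CD8 cells and for Ifitm-high over other non-cycling CD8 cells at each day, with 95% counting intervals as bars, the median of all compared genes as a dashed line and 1.5-fold as dotted lines. S100a4, S100a6 and S100a11 lie left of 0 and Anxa2, Vim and Lgals1 right of 0 in the cycling panels, and Anxa1 lies farthest right in the Ifitm-high panels.

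The third question concerned the Ifitm-high cells, which were far more frequent at day +7. Among non-cycling CD8 cells of day +7, Anxa1 stood at 27.7 CPM in cells below the Ifitm cut and 72.4 CPM in Ifitm-high cells, a log2 ratio of 1.39 with an upper bound of 1.58, and was the only one of the 10 genes called higher (background 0.707%). None was called lower (0.534%). The other genes ranged from -0.09 for Anxa2 to 0.32 for Vim, with S100a4 at 0.24, Lgals1 at 0.23 and S100a11 at 0.0047. The granulocyte list stood at 25.3 CPM in Ifitm-high and 24.3 CPM in the other cells.

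At day +14 the Ifitm-high CD8 gate held 45 cells. Anxa1 stood at 124 CPM in them (34 UMIs) and 9.75 CPM in other non-cycling cells, a log2 ratio of 3.66 (3.09 to 4.20). S100a6 (0.70) and S100a10 (0.66) were also called higher, 3 of 10 against a background of 14.9%. Of these 45 cells, 40.0% held an Anxa1 UMI, and the macrophage list stood at 127 CPM in them against 23.8 CPM in the other cells. In CD4 cells of day +7, 4 of the 10 genes were higher in Ifitm-high cells (background 7.16%) and 0 lower (10.2%). The 4 were Anxa1 (47.8 and 163 CPM, log2 ratio 1.77), Lgals1 (3145 and 5223, 0.73), Vim (933 and 1505, 0.69) and Crip1 (3583 and 5499, 0.62).

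CD4 and CD8 cells were then set side by side. At day +7 Anxa1 was higher in CD4 cells past 1.5-fold (85.1 against 32.4 CPM, log2 ratio 1.39; background 3.81%), and none of the 10 was called lower (2.07%). At day +14 Anxa1 was again higher (22.4 against 6.68 CPM, 1.75; background 6.63%) and Lgals1 was lower (2578 against 3878 CPM, -0.59; background 2.89%). Serpinb6b had log2 ratios of -0.50 and -0.23 and Anxa2 of -0.42 and -0.54. S100a11 had 0.07 at day +7 and 0.47 at day +14. Among non-cycling cells below the Ifitm cut, Anxa1 was again the 1 gene higher in CD4 cells at day +7 (8.43%) and at day +14 (8.91%). There 3 genes were lower in CD4 cells at day +7 (4.73%), namely Lgals1 (-0.76), Vim (-0.67) and Serpinb6b (-0.62), and 3 at day +14 (4.02%), namely Lgals1 (-0.79), Vim (-0.63) and Anxa2 (-0.60). In 20 and 13 CD4 cells with a Foxp3 UMI, a transcription factor of regulatory T cells, S100a6 stood at 4891 and 5225 CPM and Serpinb6b at 112 and 23.5 CPM (23 and 2 UMIs), too few cells for a comparison between days.

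The non-T gates held 230 kept cells at day +7 and 172 at day +14. The granulocyte gate, defined by S100a8, S100a9 and granule genes, held 46 and 84 cells, in which Anxa1 stood at 1821 and 1599 CPM against 38.6 and 8.58 CPM in T cells. These cells were 0.641% and 1.08% of kept cells and held 35.4% and 66.4% of all Anxa1 UMIs of their libraries. Over all kept cells Anxa1 therefore stood at 56.7 and 26.6 CPM, a log2 ratio of -1.09, against -2.28 in CD8 cells. At the Anxa1 level of the granulocyte gate, the granulocyte-list UMIs found in the CD8 gate would bring 0.369 and 0.313 CPM of Anxa1.

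After thinning, Anxa1, S100a11 and Vim each had a UMI in 97.7% of the 44 granulocyte-gate cells of day +7, while the medians of S100a4, S100a10, Lgals1 and Crip1 were 0. S100a6 stood at 5103 CPM there and 6156 CPM in T cells. Transcripts of the TCR list were also found in this gate, 1461 CPM of them at day +7 and 2057 at day +14. Serpinb6b was lower than in T cells at both days (100 against 507 CPM and 45.3 against 204 CPM). Of the 10 genes, 1 was called higher (14.8%) and 5 lower (33.5%) at day +7, and 2 higher (15.9%) and 5 lower (35.6%) at day +14.

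In the macrophage gate (43 and 22 cells) all 10 genes were lower than in T cells at day +7 (background 17.0%), with Lgals1 at 3227 against 5835 CPM and S100a6 at 2938 against 6156 CPM. At day +14, 7 were lower (27%) and 1 higher (30%), the latter being Anxa1 on 2 UMIs. In the erythroid gate of day +7 (122 cells) all 10 were lower (background 22.2%), with a median log2 ratio of -3.89 and S100a6 at 380 CPM. In the erythroid gate of day +14 (26 cells) S100a6 stood at 718 CPM, and the TCR list at 2211 CPM against 338 CPM at day +7. All 9 genes over the expression limit were lower than in T cells (26.7%) and 0 higher (25%). Anxa1 was not detected there (0 of 196263 UMIs, where 3 counts would be 15.3 CPM and the exact Poisson upper bound is 18.8 CPM).

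**Figure D4:**
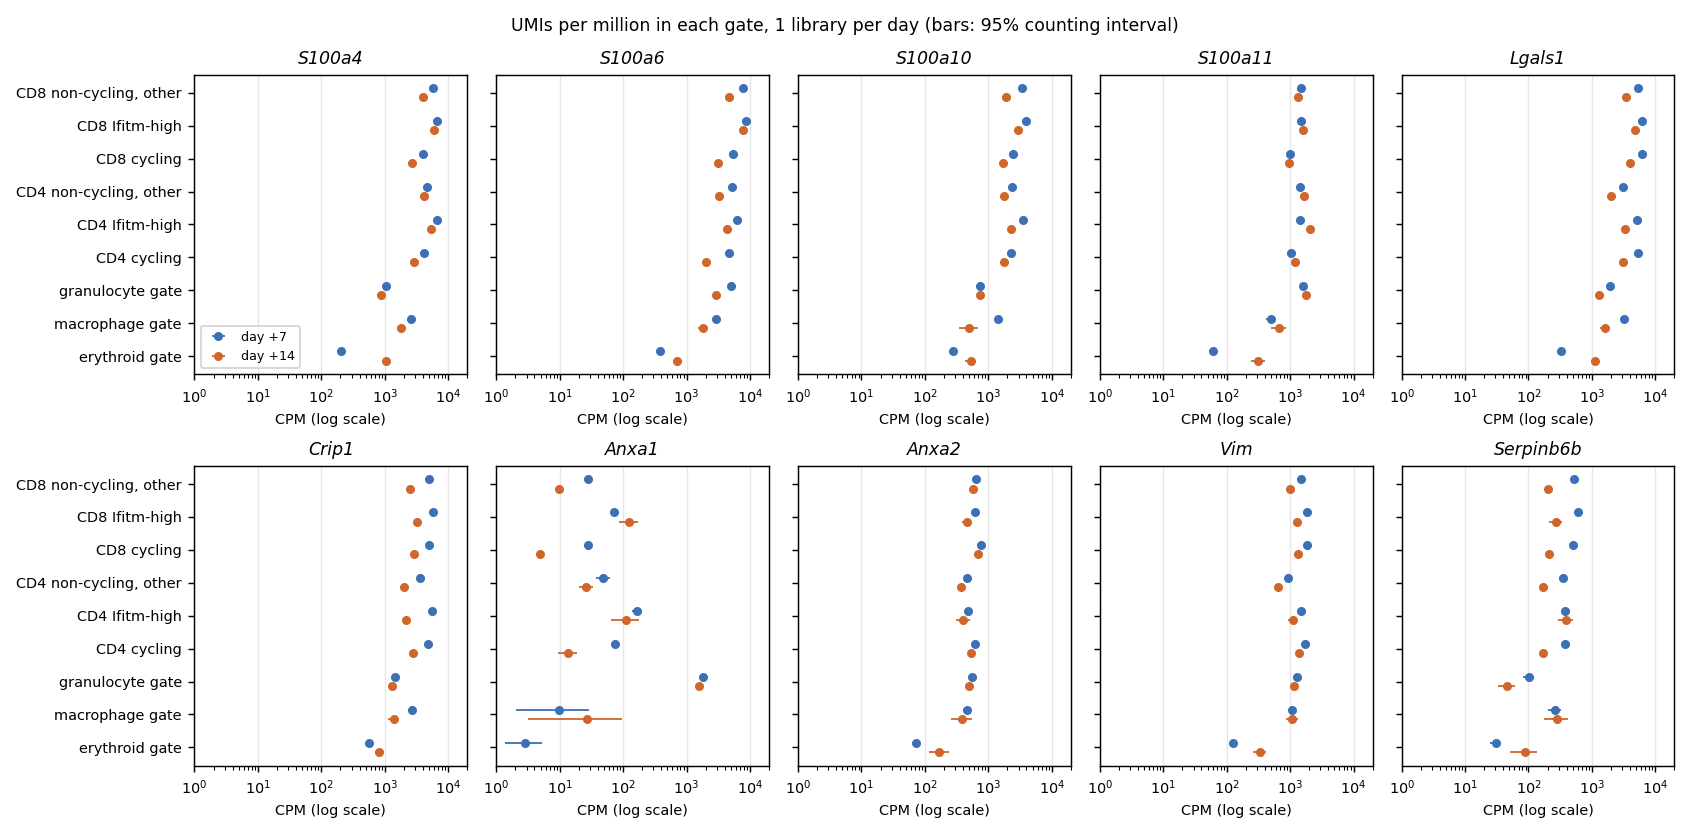
The x axis of each panel gives the CPM of 1 gene on a log scale in the 9 gates named on the y axis, with blue points for day +7, orange points for day +14 and 95% Poisson intervals as bars (a gene with 0 UMIs has no point). Anxa1 is highest in the granulocyte gate, at 1821 and 1599 CPM, while Serpinb6b is higher in T cells than in the granulocyte gate.

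Across single CD8 cells thinned to 4000 UMIs, the genes were described by Pearson's r between log-normalised values, within each library (5870 cells at day +7 and 5507 at day +14). The cells share a library and a depth, so r is given as a description. Over the 45 pairs r had a median of 0.20 at day +7 and 0.18 at day +14. Lgals1 and Crip1 had 0.52 and 0.54, and Lgals1 and Vim 0.45 and 0.53. Against the mean of the other 9 genes, S100a10 had 0.61 and 0.54, Crip1 0.60 and 0.53 and Lgals1 0.56 and 0.63, while Serpinb6b had 0.23 and 0.20 and Anxa1 0.12 and 0.05. Anxa1 had a UMI in only 10.4% of these cells at day +7 and Serpinb6b in 79.5%. How far such low counts lower r was not tested.

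**Figure D5:**
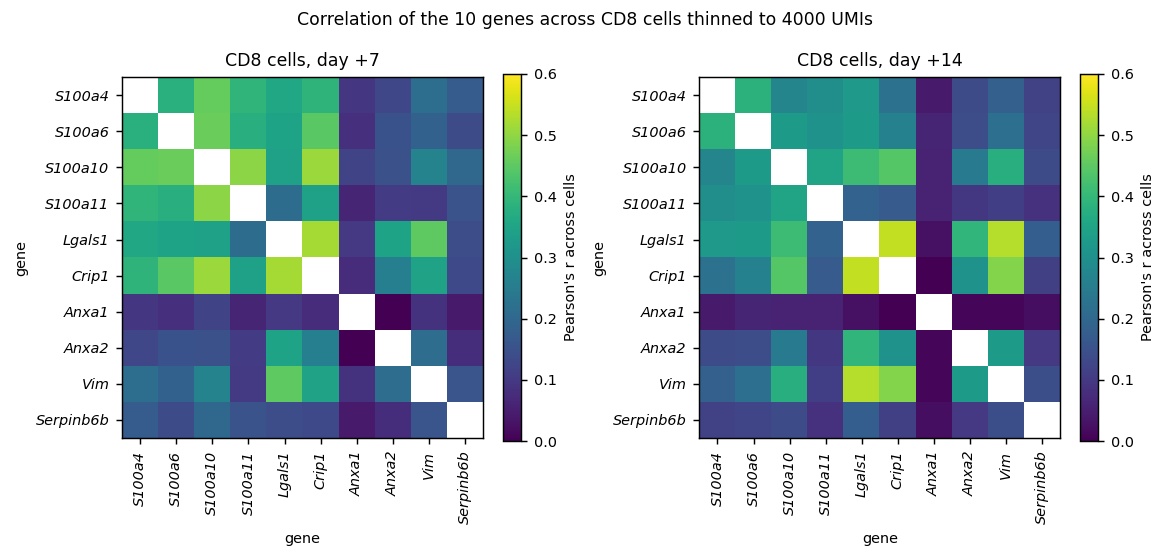
Colors give Pearson's r (0 to 0.6) between each pair of the 10 genes on the x and y axes, across CD8 cells thinned to 4000 UMIs, at day +7 and day +14. The Lgals1 and Crip1 square is bright at both days (0.52 and 0.54), and the row of Anxa1, which had few UMIs in these cells, is dark.

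Of 2304 other genes at 50 CPM or more in CD8 cells of both days, the one most like the mean of the 10 genes was Lgals3 (r of 0.62 and 0.62), which encodes galectin-3. It was followed by Tmsb4x, Sh3bgrl3, Lsp1, Myl6, Tmsb10, Cd52, S100a13, Emp3 and Tspo, with r between 0.29 and 0.58. Several of these encode proteins of the actin cytoskeleton (thymosins, a myosin light chain and Lsp1). All 10 had lower CPM at day +14, from Lgals3 (1823 and 662 CPM) to Tspo (548 and 445 CPM). Only Lgals3 (log2 ratio -1.46), Tmsb10 (-0.98) and Cd52 (-0.63) were lower past 1.5-fold (2.78% of all genes), and the others lay within it. Among the least alike were Npm1, Ncl, Rps27a and Rpl35a, genes of the nucleolus and ribosome, with r between -0.31 and -0.22. These 4 had higher CPM at day +14, Npm1 at 1096 and 1361 CPM, but none passed 1.5-fold. Their log2 ratios were 0.31, 0.42, 0.08 and 0.12 in that order, against a median of 0.19 over all genes.

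Relatives and partners of the 10 genes were read from lists of S100 proteins, annexins, galectins, LIM proteins, intermediate filaments, clade B serpins and partners of annexins or S100 proteins. The S100 list also held the binding protein S100pbp, and the galectin list the binding protein Lgals3bp. Of 78 genes, 77 were listed and 30 reached a mean of 10 CPM in CD8 cells, where 5 were lower past 1.5-fold (2.78% of all genes), 4 higher (8.41%) and 21 within it. Lgals3 (log2 ratio -1.46), Serpinb1a (25.4 and 4.39 CPM, -2.53), an inhibitor of neutrophil proteases, and Serpinb9 (182 and 117 CPM, -0.64), an inhibitor of granzyme B, were lower. Capg (264 and 76.1 CPM, -1.79), an actin-capping protein, and Ahnak (378 and 247 CPM, -0.62), a partner of the annexin A2 and S100a10 tetramer, were also lower. Lgals3bp (21.1 and 54.7 CPM, 1.38), Lgalsl (11.5 and 28.4 CPM, 1.30), Nefh (9.80 and 23.0 CPM, 1.23) and S100pbp (9.92 and 16.1 CPM, 0.70) were higher. None of the 5 other annexins over the limit was called, and they ranged from Anxa5 (92.3 and 70.0 CPM, -0.40) to Anxa7 (49.3 and 47.2 CPM, -0.06). In CD4 cells 4 of 29 were lower (2.86% of all genes) and 5 higher (14.1%), among the latter S100a8 and S100a9, which belong to the granulocyte list.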

How the data were processed

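The authors processed 10x Genomics reads with Cell Ranger 6.1.2 and mm10, per the submitters' processing notes, and deposited UMI counts per gene and barcode, without normalization, for barcodes that passed its cell detection. Gene and barcode lists hold no measurement. The counts were filtered by genes and mitochondrial share, gated, summed per gate and expressed as CPM with Python 3.11.15, numpy 2.4.6, scipy 1.17.1 and pandas 2.3.3. Day +7 held 87124828 UMIs and day +14 84233811 before filtering. Ratios carry exact conditional binomial intervals and levels exact Poisson intervals at 95%; shares carry exact Clopper-Pearson intervals. Log2 ratios in the text are of CPM, and calls add 1 CPM. The authors' doublet scores were not used here. Calculations were tested on simulated data. Genes named are the 10, their listed relatives past 1.5-fold in CD8 cells, and the 10 most and 5 least alike genes, of which 1 is not reported here; Serpinb6a, the annexins not called, Foxp3, S100a8 and S100a9 were named after their values were seen. The genes and lists were chosen with earlier results of these data known. Alternatives covered scaling, per-cell means, filters, pseudocount, fold, gate cuts, depth and high-UMI barcodes; leaving out T cells with granulocyte UMIs and taking the 10 genes out of the total were added after seeing the data.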

Additional observations from a re-analysis of the deposited data

Results flagged for a closer look

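S100a11 had a log2 ratio of day +14 over day +7 of -0.13 (95% counting interval -0.15 to -0.12) in CD8 cells and 0.26 (0.22 to 0.31) in CD4 cells of the same libraries, opposite directions in the 2 lineages. With scaling by the median gene the values were -0.35 and 0.17. The difference was not tested, since each day is 1 library.

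Crip1 had a log2 ratio of cycling over non-cycling CD8 cells of -0.092 (-0.10 to -0.08) at day +7 and 0.21 (0.19 to 0.22) at day +14, opposite directions at the 2 days. The non-cycling cells included 845 Ifitm-high cells of 2832 at day +7 and 45 of 2770 at day +14. Neither the difference nor the part of this make-up in it was tested.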

How the results depend on the processing

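At a fold of 2 in place of 1.5, the number of the 10 genes lower at day +14 went from 7 to 2 in CD8 cells, from 5 to 2 in CD4 cells and from 6 to 2 in all kept cells. Under the other alternatives it lay between 5 and 8 in CD8 cells and in all kept cells and between 5 and 7 in CD4 cells, and 0 were higher. Every log2 ratio in CD8 cells kept its sign, with Serpinb6b between -1.54 and -1.31, Crip1 between -1.05 and -0.81 and S100a11 between -0.35 and -0.12. Scaling by the median ratio moved the CD8 value of S100a11 from -0.13 to -0.35 and gave 8 lower genes. The counts lower in cycling CD8 cells were fragile. At day +7 the 2 became 0 with the mean of per-cell CPM, a fold of 2, a cycling cut of 3000 CPM, without the 5% of barcodes with the most UMIs, or in cells thinned to 4000 UMIs. At day +14 the 1 became 0 under those and under median-ratio scaling, and 2 with a mitochondrial limit of 5%. For the remaining values, 512 moved by less than their counting interval and 172 by more, and none changed direction past the call limit. No paired analysis was possible because each day is 1 library. Differences between mice, libraries and sort days cannot be told apart from the difference between days.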
